A study of Danio rerio with 4 samples.

Results

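Genes that mark veins and lymphatic vessels were followed in endothelial cells of the posterior cardinal vein, which drains the trunk of the zebrafish embryo. The 5 genes were stab2, stab1, lyve1b, dab2 and NR2F2, chosen by Ensembl identifier or, for dab2, by the symbol spelled in lower case, out of 32434 gene rows. Ventral libraries (2) held cells from the ventral side of the vein and dorsal libraries (2) cells from its dorsal side, both taken at 24 hours post fertilization with 6 embryos per group. All embryos carried Tg(fli1:gal4;uasKaede), in which regulatory sequence of fli1 drives the photoconvertible protein Kaede through the activator Gal4, and light turned Kaede red on 1 side before the red cells were sorted. In zebrafish, fli1 is active in endothelial cells, but also in their precursors and in some neural crest cells. Nothing in the labels says that the libraries of a side stem from different embryos, and p-values therefore reflect the spread among 4 libraries, which may be technical variation alone.

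Veins of the zebrafish embryo take up waste from the blood through scavenger receptors and carry it inwards with clathrin-coated vesicles. STAB2 and its relative STAB1 are such receptors, and STAB2 and LYVE1 bind hyaluronan, a sugar polymer of the extracellular matrix. DAB2 is an adaptor that couples receptors to clathrin and, in zebrafish, takes part in the response of venous sprouts to bone morphogenetic protein (BMP). NR2F2, also called COUP-TFII, is a nuclear receptor that favours venous over arterial fate in mouse and acts with PROX1 in lymphatic cells. The series title places the origin of lymphatic vessels in the floor of the vein, and these genes were therefore compared between the ventral and the dorsal side.

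Depth set narrow limits. The ventral libraries 1 and 2 held 108405 and 79527 gene counts, against 115876 and 51376 in dorsal libraries 1 and 2. Genes with a count numbered 9009 and 7810 in ventral libraries, against 8376 and 6272 in dorsal ones. Per count of the ERCC spike-in RNA, gene counts were 11.2 and 9.68 in ventral libraries, against 12.5 and 4.68 in dorsal libraries. Dorsal library 2 was thus the lowest by each of these measures. Levels are given in CPM, counts per 1000000 gene counts, and 3 counts, used as the floor of detection, correspond to 27.7 and 37.7 CPM in the ventral libraries, against 25.9 and 58.4 CPM in the dorsal ones. No gene exceeded 1024 counts, the number of identifiers that 5 bases can form, and the counts were read as distinct identifiers. The members stayed far below that ceiling, with 33 counts at most. Red cell transcripts were abundant on both sides. The sum of 12 erythroid rows below the ceiling was 9824 and 9682 CPM in ventral libraries, against 13627 and 10141 CPM in dorsal libraries.

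All 5 genes were counted more often in the ventral cells, and for each of them the lower ventral library still exceeded the higher dorsal library in CPM. Among genes with at least 7 counts, the lowest total of any member, 19.7% had that order of libraries and 17.4% the opposite one. Summed over the 5 genes, the ventral libraries gave 59 and 63 counts, against 7 and 11 in the dorsal libraries. The members were chosen with these values known, so the sums describe them and test nothing. In bulk samples such as these, fewer cells of a type and less RNA per cell cannot be told apart.

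**Figure D1:**
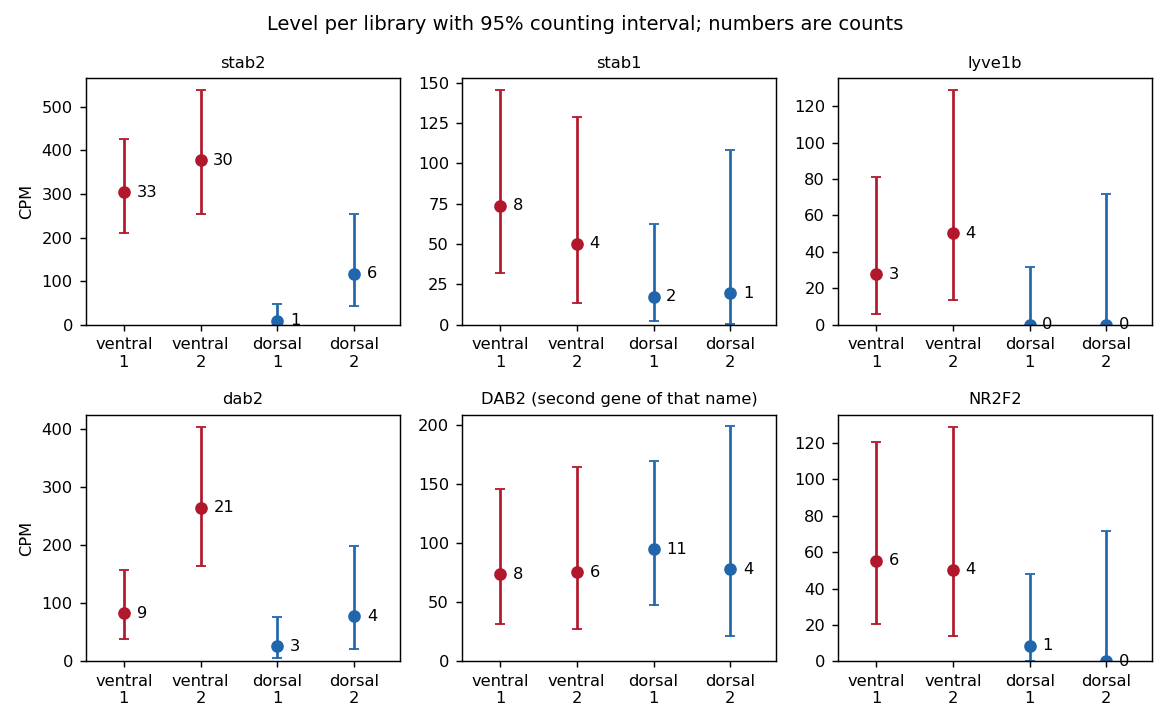
Level of each gene in CPM (vertical axis) in the 2 ventral and 2 dorsal libraries, with 95% Poisson counting intervals and the count beside each point. For the 5 venous and lymphatic genes both ventral points lie above both dorsal points. For the second gene named DAB2, with 8 and 6 ventral against 11 and 4 dorsal counts, the order of the points is the opposite. Its counting intervals all overlap.

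The scavenger receptor gene stab2 (ENSDARG00000045748) held the most counts of the set. It gave 33 and 30 counts in ventral libraries 1 and 2, which are 304 and 377 CPM, against 1 and 6 counts in dorsal libraries 1 and 2, which are 8.63 and 117 CPM. The ventral libraries were alike, and the dorsal ones were not. The ratio between the ventral libraries was 1.24, with a 95% counting interval of 0.730 to 2.1, while dorsal library 2 stood 13.5-fold above dorsal library 1, with an interval of 1.64 to 622. These intervals cover counting error only. On average stab2 stood at 341 ± 51.5 CPM in ventral cells and 62.7 ± 76.5 CPM in dorsal cells (SD, n = 2 libraries each), so that the dorsal spread exceeded the dorsal mean.

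Of the 5 genes, stab2 was the single one abundant enough for the fit over all genes, edgeR's quasi-likelihood test on 1399 genes after its expression filter. Its log2 fold, ventral over dorsal, was 2.91 ± 0.70 (SE), and it did not pass, with a Benjamini-Hochberg adjusted p of 0.119. In that test 0.429% of genes were called in either direction, all of them higher in ventral. The fold of stab2 was the fifth highest of the 1399, and its unadjusted p of 0.00213 ranked 25. With 2 libraries a side, an exact permutation of library labels cannot give a 2-sided p below 0.333.

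Whether stab2 passed depended on single libraries. Without dorsal library 2 the log2 fold was 5.23 ± 0.77 (SE) with an adjusted p of 4.49e-09, and without dorsal library 1 it was 1.40 ± 0.50 with an adjusted p of 0.296. Leaving out ventral library 1 or 2 gave 3.02 ± 0.71 and 2.77 ± 0.64, with adjusted p of 0.00227 and 0.000795. These 4 fits called 4.74%, 1.46%, 1.39% and 4.31% of their genes, in the order given. These fits have 1 residual degree of freedom and treat a lone library as if it varied like the other side. Without the expression filter stab2 passed as well, at 2.90 ± 0.55 with an adjusted p of 0.000154, in a fit that called 0.388% of 12123 genes. DESeq2 gave an adjusted p of 0.995 and voom 0.275, and over all 11 alternatives the adjusted p ran from 4.49e-09 to 0.999.

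**Figure D2:**
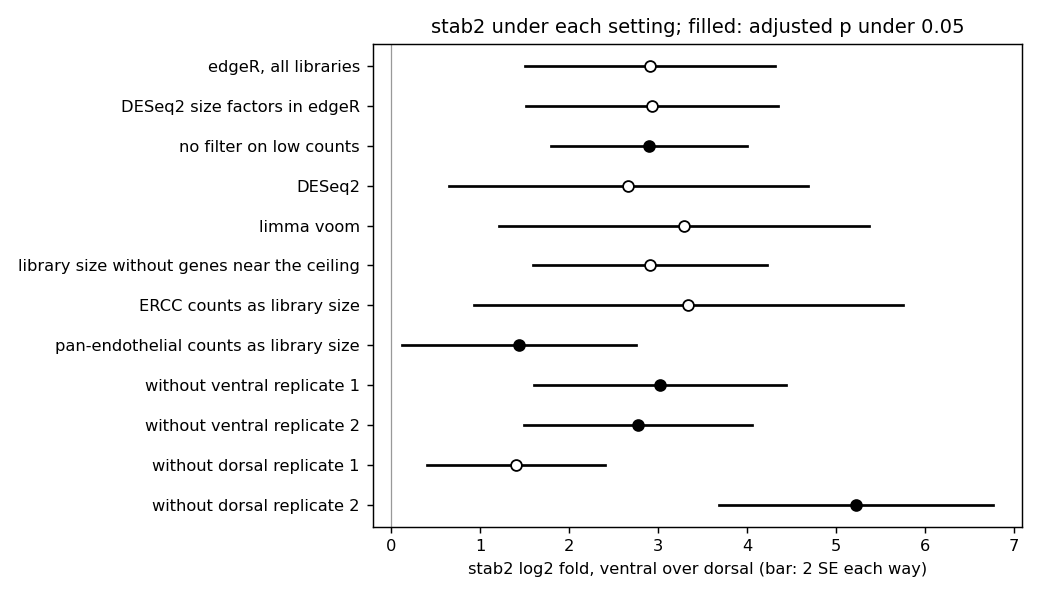
Log2 fold of stab2, ventral over dorsal (horizontal axis), in each fit (rows), with bars of 2 SE each way and filled points where the adjusted p was under 0.05. Every point lies above 0, from 1.40 without dorsal library 1 to 5.23 without dorsal library 2.

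Its relative stab1 (ENSDARG00000076484) was sparse. It gave 8 and 4 counts in the ventral libraries, or 73.8 and 50.3 CPM, against 2 and 1 counts in the dorsal libraries, or 17.3 and 19.5 CPM. The replicates were close on both sides, and the sides did not overlap. Summed per side and scaled to gene counts, the ratio of ventral to dorsal was 3.56, with a counting interval of 0.961 to 19.7 that includes 1. At this depth no difference was therefore detectable for stab1 per gene count. With ERCC counts as depth the ratio was 4.52, with an interval of 1.22 to 25. That scaling carries the low yield of dorsal library 2, at 4.68 gene counts per ERCC count, into the ratio. The count ratio of stab2 to stab1, which needs no scaling, was 4.13 and 7.5 in ventral libraries and 0.5 and 6 in dorsal libraries. Ventral library 1 lay below dorsal library 2, so the sides overlapped in that ratio. Summed per side it was 2.25-fold higher in ventral cells. The interval of 1.03 to 5.82 covers the counting error of stab2 alone. It takes the 12 ventral and 3 dorsal counts of stab1 as exact and is therefore too narrow. Whether the ratio differed between the sides was not tested.

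The hyaluronan receptor gene lyve1b (ENSDARG00000062483) marks venous and lymphatic endothelium in zebrafish. It gave 3 and 4 counts in the ventral libraries, or 27.7 and 50.3 CPM, against 0 counts in both dorsal libraries, which allow up to 17.9 CPM over the dorsal group. With the dorsal group set at the floor of 3 counts, the ratio of ventral to dorsal was 2.08. Such a ratio against the floor is called a bound here, and it leaves out counting error. The lower counting limit of the ratio was 1.28. With a library left out, the direction was bounded only without ventral library 1, where the lower limit was 1.39. The lower limit was 0.638 without ventral library 2, 0.394 without dorsal library 1 and 0.889 without dorsal library 2, and the bound itself was 0.638 without dorsal library 1. Its paralogue lyve1a gave 0 counts in ventral libraries and 1 in dorsal libraries, too few for any comparison.

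The clathrin adaptor gene dab2 (ENSDARG00000031761) was uneven within the ventral side. It gave 9 and 21 counts in ventral libraries 1 and 2, or 83 and 264 CPM, against 3 and 4 counts in dorsal libraries 1 and 2, or 25.9 and 77.9 CPM. Ventral library 2 stood 3.18-fold above ventral library 1, with a counting interval of 1.40 to 7.89, and ventral library 1 lay close to dorsal library 2. Per side the ratio of ventral to dorsal was 3.81, with an interval of 1.64 to 10.3. Without ventral library 2 it was 1.98, with an interval of 0.657 to 6.27, and without dorsal library 1 it was 2.05, with an interval of 0.723 to 8.01. In the edgeR fit without a filter dab2 stood at a log2 fold of 1.92 ± 0.66 (SE) with an adjusted p of 0.326, and in DESeq2 its adjusted p was 0.995. It passed in the fit without dorsal library 2, at 2.76 ± 0.82 with an adjusted p of 0.0201, in the fit that called 4.74% of genes.

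A second zebrafish gene carries the same symbol in capitals, DAB2 (ENSDARG00000053091), and it was counted apart. It gave 8 and 6 counts in ventral libraries, or 73.8 and 75.4 CPM, against 11 and 4 counts in dorsal libraries, or 94.9 and 77.9 CPM. Both dorsal libraries thus lay above both ventral ones in CPM, an order that 17.4% of all genes with at least 7 counts had. The ratio of ventral to dorsal for DAB2 was 0.831, with a counting interval of 0.371 to 1.85, and its 4 levels lay close together. The count ratio of dab2 to DAB2 within a library was 1.13 and 3.5 in ventral libraries, against 0.273 and 1 in dorsal libraries. Summed per side, that ratio was 4.59-fold higher in ventral cells. The interval of 1.98 to 12.4 covers the counting error of dab2 alone. It takes the counts of DAB2 as exact and is therefore too narrow. The comparison of both genes was chosen after their values were seen. Whether the counting could move reads between them was not tested.

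The venous regulator NR2F2 (ENSDARG00000040926) gave 6 and 4 counts in the ventral libraries, or 55.3 and 50.3 CPM, against 1 and 0 counts in dorsal libraries 1 and 2, or 8.63 and 0 CPM. The ventral libraries differed by less than counting error. The ratio of ventral to dorsal was 8.90, with a counting interval of 1.27 to 386, so its size was hardly bounded from above. The interval included 1 without ventral library 1 (0.832 to 414) and without dorsal library 2 (0.877 to 268), and without dorsal library 1 the ratio was a bound of 0.911. The edgeR fit without a filter put NR2F2 at a log2 fold of 2.92 ± 1.22 (SE) with an adjusted p of 0.710, against 0.995 in DESeq2, and a single dorsal count set that fold. Related nuclear receptor genes were sparse, with 3 and 1 counts in ventral against 2 and 0 in dorsal libraries for nr2f5.

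**Figure D3:**
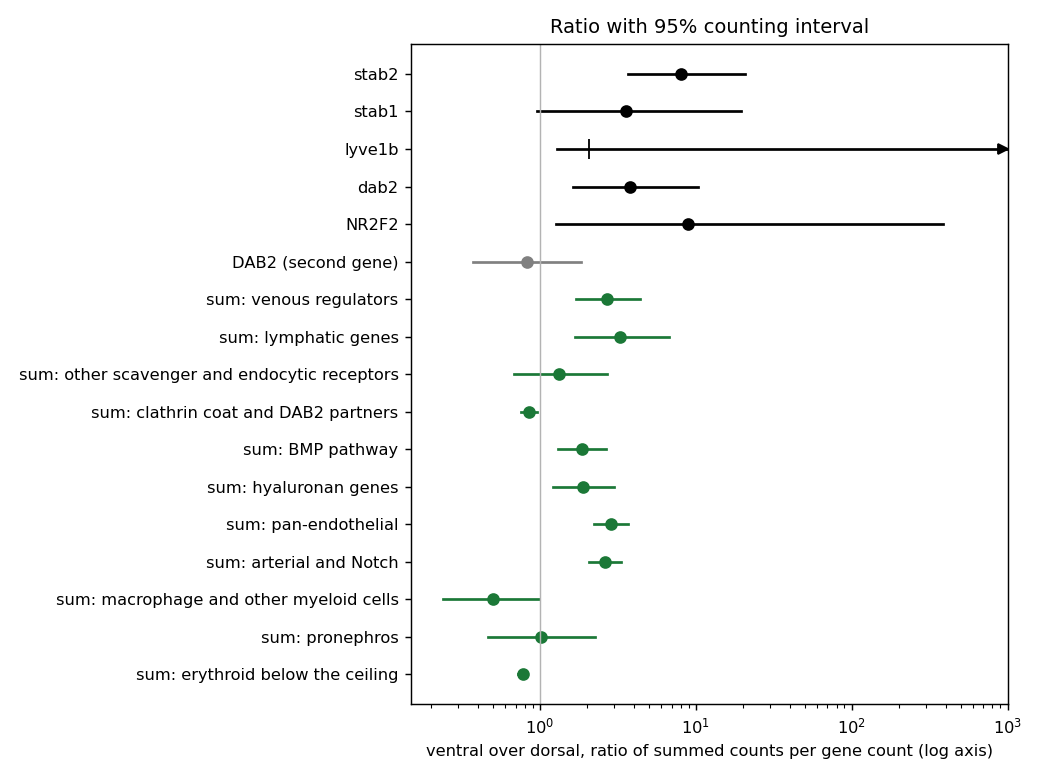
Ratio of summed counts, ventral over dorsal, scaled to gene counts (horizontal log axis), with 95% counting intervals for the 5 genes (black), the second DAB2 gene (grey) and summed gene lists (green). The tick of lyve1b is its lower bound of 2.08 and its arrow an interval without an upper end. The intervals of stab2, dab2, NR2F2 and lyve1b lie above 1. So do those of the pan-endothelial, arterial and Notch, venous, lymphatic, BMP and hyaluronan sums. The venous and lymphatic sums share NRP2 and sox18. Those of the clathrin, myeloid and erythroid sums lie below 1.

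The sum of a list of pan-endothelial genes was also higher on the ventral side, and the members were therefore set against it. The pan-endothelial list matched 24 rows, of which 20 had a count, and its sum was 1624 and 1295 CPM in ventral libraries, against 492 and 584 CPM in dorsal libraries. Its ratio of ventral to dorsal was 2.85, with a counting interval of 2.24 to 3.67. By summed CPM 16 rows of the list were higher in ventral and 4 in dorsal cells. A CLDN5 row, plvapb, she and DUSP5 held 59, 58, 44 and 42 of the list's 366 counts. Of its 14 rows with at least 7 counts, 9 had both ventral libraries above both dorsal ones, against 19.7% of all genes with that many counts. In the gene test 0 of its 4 tested members were called by edgeR, 4 had an unadjusted p under 0.05, and their median log2 fold was 1.5, against -0.033 over all genes tested. Over all genes, edgeR called 6 higher and 0 lower, with 105 higher and 65 lower at an unadjusted p under 0.05, while DESeq2 and voom called 0. At an unadjusted p under 0.05 DESeq2 had 49 genes higher and 7 lower, and voom 102 higher and 76 lower. Some defining endothelial markers were sparse: the receptor gene tek gave 10 and 10 counts in ventral against 2 and 3 in dorsal libraries, cdh5 gave 2 and 1 against 4 and 0, and KDR gave a single ventral count. FLI1, the gene whose regulatory sequence drives Kaede, gave 9 and 7 against 0 and 5, so that dorsal library 2 lay above both ventral libraries in CPM.

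Scaled to the pan-endothelial sum, stab2 was the single member whose counting interval stayed above 1. It gave 18.8 and 29.1 counts per 100 pan-endothelial counts in ventral libraries, against 1.75 and 20.0 in dorsal libraries. Dorsal library 2 thus lay above ventral library 1, and the sides overlapped. Summed per side the ratio was 2.81, with a counting interval of 1.29 to 7.26. The edgeR fit with pan-endothelial counts as library size gave stab2 a log2 fold of 1.44 ± 0.66 (SE) with an adjusted p of 0.0401, while it moved the median of all genes to -1.48 and called 75.1% of genes, nearly all of them lower. The other members did not differ from the pan-endothelial sum beyond counting error. The ratio was 1.25 (0.337 to 6.89) for stab1, 1.34 (0.575 to 3.6) for dab2 and 3.12 (0.444 to 135) for NR2F2, and lyve1b had a lower limit of 0.449. For DAB2 it was 0.291 (0.130 to 0.647).

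**Figure D4:**
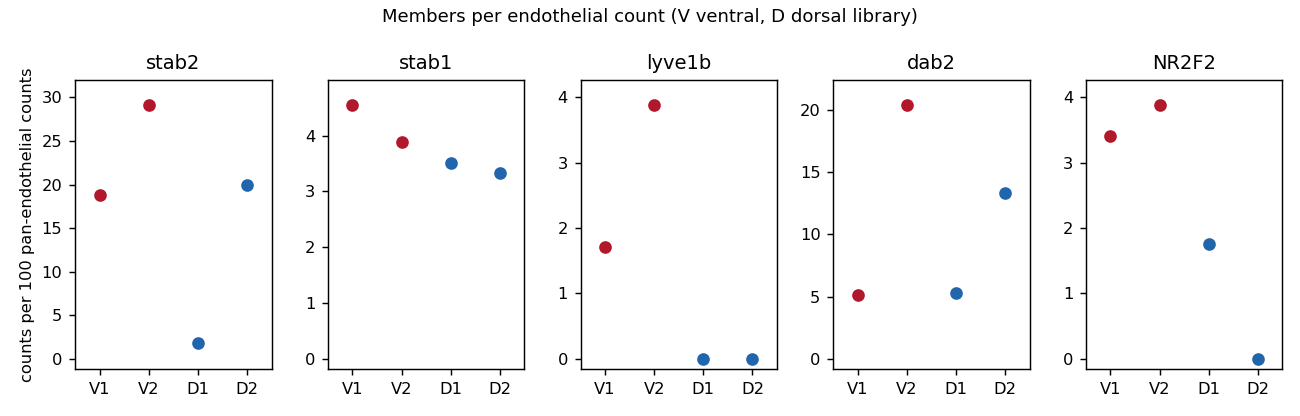
Counts of each gene per 100 pan-endothelial counts (vertical axis, own scale per gene) in ventral libraries V1 and V2 and dorsal libraries D1 and D2. For stab2 and dab2 the sides overlap, with stab2 at 18.8 and 29.1 in ventral against 1.75 and 20.0 in dorsal libraries.

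The sum of arterial and Notch genes was higher on the ventral side too. The arterial and Notch list was 1826 and 1006 CPM in ventral libraries, against 578 and 545 CPM in dorsal libraries, for a ratio of 2.60 (counting interval 2.06 to 3.32). Of its 11 rows with at least 7 counts, 5 had both ventral libraries above both dorsal ones and 6 overlapped, where 19.7% of all genes with that many counts had both ventral libraries on top. Among those that overlapped, HEY1, a Notch target, gave 9 and 3 counts in ventral against 6 and 5 in dorsal libraries, a ratio of 0.971 (0.392 to 2.43). The genes EFNB2, dll4 and LFNG held most of the counts. Its members include the ephrin gene EFNB2 with a log2 fold of 1.36 ± 0.48 (SE) and the Notch ligand gene dll4 with 1.72 ± 0.41, and 0 of the 3 tested members passed edgeR's test, at adjusted p of 0.302 for EFNB2, 0.119 for dll4 and 0.106 for LFNG. Relative to that sum, a scaling chosen after the data were seen, stab2 was 3.08-fold higher in ventral cells, with a counting interval of 1.41 to 7.96. Per 100 arterial and Notch counts it gave 16.7 and 37.5 in ventral libraries, against 1.49 and 21.4 in dorsal libraries, so the sides overlapped again. The intervals of stab1, dab2 and NR2F2 on that scale included 1.

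**Figure D5:**
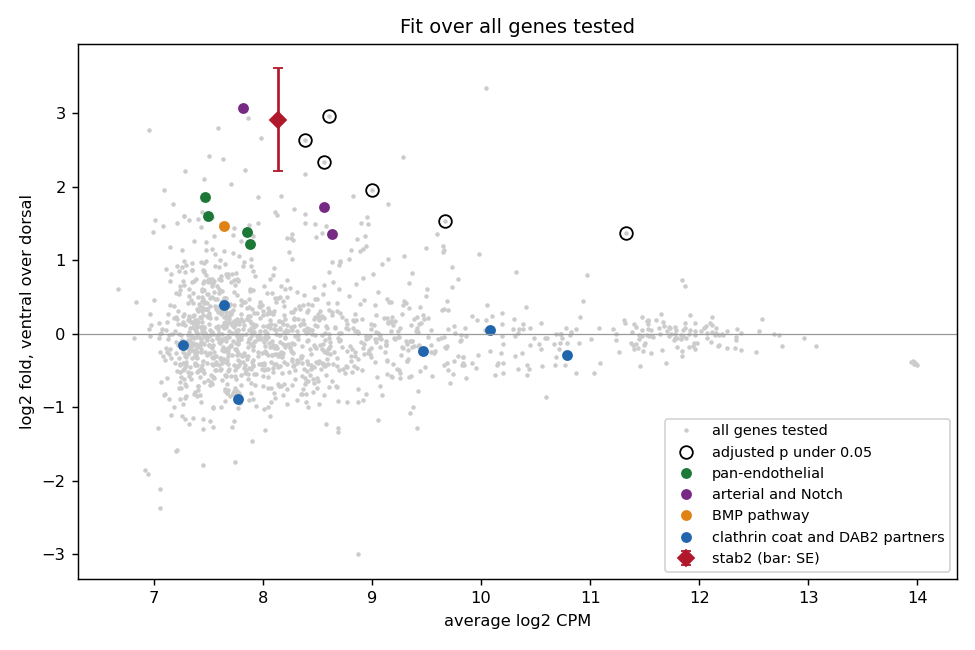
Log2 fold, ventral over dorsal (vertical axis), against average log2 CPM (horizontal axis) for the 1399 genes tested, with stab2 as a diamond with its SE and 4 gene lists in colour. stab2 lies at 2.91, level with the highest circled genes past the threshold, and the clathrin genes lie between -0.89 and 0.39.

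Other genes of the same pathways were taken from lists that leave out the 5 members. Of the venous regulators, 14 rows were matched, 11 had a count and 0 were abundant enough for the edgeR test. Their sum was 360 and 503 CPM in ventral libraries, against 164 and 136 CPM in dorsal libraries. Of 5 rows with at least 7 counts 2 had both ventral libraries on top, against 19.7% of all genes with that many counts. SOX7, a transcription factor of vessel precursors, gave 11 and 9 counts in ventral against 8 and 0 in dorsal libraries. The apelin receptor gene aplnrb gave 4 and 16 against 5 and 2, so that ventral library 1 lay below dorsal library 1 in CPM. Its paralogue aplnra gave 4 and 5 counts in ventral libraries and 0 in both dorsal libraries. NRP2, which encodes a co-receptor of lymphatic growth factors, gave 6 and 5 against 0 and 3.

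Lymphatic genes were hardly detected. Of 19 matched rows, 8 were at 0 in every library and 0 were tested by edgeR. PROX1, the regulator that sets lymphatic fate, was at 0 in each of the 4 libraries, and a total of 0 counts allows at most 8.45 CPM across them. The growth factor gene VEGFC gave 3 and 1 counts in ventral against 2 and 0 in dorsal libraries. YAP1, a transcriptional co-activator, gave 5 and 5 against 1 and 0, for a ratio of 8.90 (counting interval 1.27 to 386.) The list sum was 249 and 214 CPM in ventral libraries, against 69.0 and 77.9 CPM in dorsal libraries, and the 3.26-fold ratio had a counting interval of 1.69 to 6.79. NRP2, its most counted row with 14 counts, and sox18, with 1 count, also stand on the venous list. The venous and lymphatic sums are therefore not independent. flt4, mrc1a and ephb4a are not analysed here.

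The other scavenger and endocytic receptors gave few counts. Of 18 matched rows 10 had a count, and the sum was 13 and 11 counts in ventral libraries, against 11 and 5 in dorsal libraries. The ratio of 1.33 had a counting interval of 0.680 to 2.69. The mannose receptor gene mrc1b gave 2 and 1 counts in ventral libraries and 0 in dorsal ones. SCARF1, a further scavenger receptor gene of endothelial cells, gave 0 and 1 counts in ventral against 4 and 1 in dorsal libraries, an order opposite to that of stab2 but on 6 counts.

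Genes of the clathrin coat were abundant enough to test in 6 of 30 matched rows. In edgeR's test 0 of the 6 were called, against 0.429% of all genes tested, and 0 had an unadjusted p under 0.05, with 2 above and 4 below 0 and a median log2 fold of -0.19. Of 14 rows with at least 7 counts, 5 had both dorsal libraries on top and 2 both ventral ones. Among all genes with that many counts the shares were 17.4% and 19.7%. The list sum had a ratio of ventral to dorsal of 0.853 (counting interval 0.764 to 0.953), and its libraries overlapped between the sides. The heavy chain gene cltca gave 91 and 69 counts in ventral against 101 and 39 in dorsal libraries, which put its log2 fold at 0.051 ± 0.18 (SE), with an edgeR adjusted p of 0.985. The light chain gene CLTA stood at -0.23 ± 0.23 and AP2M1, a subunit of the AP2 adaptor of clathrin coats, at -0.29 ± 0.19, with adjusted p of 0.806 and 0.656 in edgeR's test. CLTC, a second heavy chain row, gave 10 and 10 counts against 28 and 7 and stood at -0.89 ± 0.44 (adjusted p = 0.486, edgeR). The filter on low counts left dab2 out of that fit, and the difference between dab2 and the clathrin genes was not tested.

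Genes of the BMP pathway, in which DAB2 acts, were counted mainly through their targets. Receptor and SMAD genes gave 9 counts or fewer in every library, with acvr1l, a type I receptor, at 2 and 7 in ventral against 9 and 5 in dorsal libraries. The target genes ID1, ID2 and ID3, which encode inhibitors of helix-loop-helix factors, all had both ventral libraries above both dorsal ones. Among all genes with at least 7 counts, 19.7% had that order. The pan-endothelial sum was higher in ventral cells too, at a ratio of 2.85 (counting interval 2.24 to 3.67). The ID genes were not tested against that sum. ID1 gave 23 and 14 counts against 9 and 3, a log2 fold of 1.46 ± 0.48 (SE) that did not pass (adjusted p = 0.255, edgeR). ID3 gave 13 and 8 against 4 and 2, for a ratio of 3.11 (counting interval 1.22 to 9.43.) Hyaluronan genes were sparse, with the synthase gene HAS2 at 1 ventral count. The link protein gene HAPLN1 gave 25 and 12 counts against 9 and 6, a log2 fold of 1.1 ± 0.49 (adjusted p = 0.413, edgeR). From the same list, hmmr gave 5 and 5 counts against 5 and 5, a ratio of 0.890 (counting interval 0.332 to 2.38).

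The genes most like stab2 across the 4 libraries were LFNG, sdc4, PLK2, CNN2 and tpm4a, by the distance between shares of CPM per library, among 1649 other genes with at least 30 counts. LFNG, which encodes a modifier of Notch, was nearest at a distance of 0.049 and gave 28 and 22 counts in ventral against 1 and 4 in dorsal libraries. sdc4, the gene of the proteoglycan syndecan 4, followed at 0.052 with 19 and 18 against 3 and 3. The genes most like dab2 were PPM1K, SEC61A1, ENSDARG00000087655, rhbdd2 and FSTL1, at distances of 0.138 to 0.210. PPM1K gave 13 and 55 counts in ventral against 8 and 6 in dorsal libraries, and it shares with dab2 the high value in ventral library 2. None of the 10 stands on both lists, and likeness over 4 libraries is a description with no test.

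Markers of other cells were read beside these results. STAB1 is also made by macrophages in mammals, and the macrophage and other myeloid rows summed to 111 and 25.1 CPM in ventral libraries, against 17.3 and 448 CPM in dorsal libraries. The 3 rows named MPEG1 were at 0 in all libraries, and 17 of the 23 counts in dorsal library 2, the dorsal library with more stab2, came from the neutrophil gene lyz. The myeloid row SPI1 gave 5 and 2 counts in ventral against 1 and 3 in dorsal libraries. For the pronephric duct, where dab2 can be active, the defining markers PAX2, PAX8 and CDH17 were at 0, and 13 of 18 matched rows had no count. Of the 30 counts of that list 19 belonged to the broadly expressed TRPM7, so the sum is no measure of the duct. Neural rows, of interest for NR2F2, gave 2 and 5 counts in ventral against 4 and 0 in dorsal libraries. Epidermal rows summed to 3266 and 1081 CPM in ventral libraries, against 492 and 681 CPM in dorsal ones, and krt4, cyt1l and krt17 were counted in ventral library 1 alone. The keratin gene krt8 gave 86 and 38 counts in ventral against 23 and 9 in dorsal libraries, which edgeR put at 1.76 ± 0.33 (SE) on the log2 scale, with an adjusted p of 0.0609. The keratin gene krt18a.1 gave 69 and 31 counts in ventral against 21 and 4 in dorsal libraries, which edgeR put at 1.87 ± 0.39 (SE), with an adjusted p of 0.0979. In CPM, both ventral libraries lay above both dorsal ones for each of these keratin genes, ventral library 2 included. Among all genes with at least 7 counts, 19.7% had that order. The epidermal row epcam gave 31 and 17 counts in ventral against 13 and 22 in dorsal libraries, a ratio of 1.22 (counting interval 0.773 to 1.94). Its highest level in CPM was in dorsal library 2. Mesenchyme and somite rows summed to 710 and 88.0 CPM in ventral libraries, against 233 and 97.3 CPM in dorsal ones, 2.34 times as much (counting interval 1.54 to 3.63). The libraries of the 2 sides overlapped, and ventral library 1 held 26 of the 27 counts of twist1b. Without ventral library 1 the ratio of ventral to dorsal was 9.01 for stab2 (counting interval 3.88 to 24.3) and 6.31 for dab2 (2.58 to 17.6), while the intervals of stab1, 0.474 to 19.1 around 2.80, and of NR2F2, 0.832 to 414 around 8.41, included 1. The part of the epidermal, mesenchymal and lyz counts in the members' results was not tested.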

How the data were processed

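The members and gene lists were chosen with earlier results of these data known. RNA of sorted cells was extracted with ERCC spike-ins and sequenced by CEL-Seq, which tags the 3' end of transcripts with a library barcode and a unique molecular identifier, per the labels' protocols. CASAVA 1.8, Bowtie2 2.1.0, HTSeq 0.5.4p3 are listed in the submitters' processing notes, as is the build Zv9, with no role stated. The authors deposited whole-number counts per gene; the sources used here do not say whether these are reads or identifiers. Rows that name no gene (96.4% to 97.4% of column totals) were left out. A table pairing Ensembl identifiers with symbols named 20769 of 32434 genes and gave the symbol of each member. No coordinates or sequences are given.

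Ventral was compared with dorsal in edgeR 4.0.16 (R 4.3.3; filterByExpr, TMM, quasi-likelihood F test, 2-sided, Benjamini-Hochberg over all genes tested, threshold 0.05). The SE given with an edgeR log2 fold was derived from the test, as the absolute log2 fold divided by the square root of F. DESeq2 1.42.0, voom in limma 3.58.1, other library sizes, no filter and leaving out each library were alternatives. Ratios of summed counts carry exact conditional 95% intervals (scipy 1.17.1), and single levels exact Poisson intervals. Both cover counting error only. Where another gene or a list sum served as depth, its counts were taken as exact, so those intervals are too narrow. In data simulated with a fixed dispersion of 0.05 between libraries, 1526 genes were tested, and changes were planted only in genes that pass the filter. There edgeR called 86.7% of genes changed 4-fold and 98.9% of those changed 8-fold. That dispersion was set and not estimated from these libraries, so the shares do not say how many such changes the real comparison would find. Context genes were named by rule: up to 6 per list with at least 10 counts, and for likeness the 5 nearest genes with at least 30 counts. Not every gene that the rule allows is given by name. Sparser genes, with the second DAB2 row, were chosen after their values were seen. Libraries correlated at 0.863 to 0.919 in log2 CPM over the tested genes. The ventral libraries correlated with each other at 0.919. The dorsal libraries correlated at 0.892, below the 0.899 of ventral library 2 with dorsal library 1.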

Additional observations from a re-analysis of the deposited data

How the results depend on the processing

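Depth limits stab1, lyve1b and NR2F2, whose dorsal counts of 3, 0 and 1 bound their ratios poorly from above. With TMM sizes, with gene counts without the 9 genes near the identifier ceiling and with ERCC counts as depth, the ratios of all 5 genes stayed within their counting intervals; ERCC counts moved the median log2 fold of all genes to 0.22. With pan-endothelial counts as depth the ratio of ventral to dorsal was 2.81 for stab2 and 1.34 for dab2, and the bound for lyve1b was 0.728. With arterial and Notch counts, added after the data were seen, these were 3.08, 1.46 and 0.797. The cause was not tested. Without 1 library in turn the ratios ran from 2.87 to 38.8 for stab2, 2.80 to 4.11 for stab1, 1.98 to 6.31 for dab2 and, as bounds, 0.638 to 2.80 for lyve1b. For NR2F2 they ran from 0.911, a bound without dorsal library 1, to 9.26. In the fit without a filter all 5 genes were tested and 1 was called, as were 0.388% of all genes. With pan-endothelial library sizes stab2 alone of the 5 was tested. It was called there, as were 75.1% of all genes. The log2 fold of stab2 was 2.90 without a filter and 1.44 with pan-endothelial library sizes. It ran from 1.40 to 5.23 without 1 library, with 0 to 2 of the 5 genes called. Each fit without 1 library tested only 1 or 2 of the 5 genes. The gene stab2 stayed uncalled at 2.93 with DESeq2 size factors, 2.67 in DESeq2 and 3.29 in voom. It also stayed uncalled at 3.34 with ERCC sizes and 2.91 without the genes near the ceiling. No paired analysis was run, because the labels state no pairing of ventral with dorsal libraries. Sample numbers in the titles are adjacent across the sides, but nothing says that they mark pairs.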
